A study of Mus musculus with 44 samples.

Results

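The libraries described here are the 8 livers of the one-year cyclic ketogenic diet (KD) group, of 44 libraries in the series, divided by the count of one predicted gene, Gm10800. The sets were chosen by a measured value, the share of Gm10800 in the total count of each library. Livers above a share of 0.1% are called livers with signal and livers below it livers without signal, which gave 5 and 3 libraries. The mice were C57BL/6 males of 26 months from an aging colony. The KD mice had received the control diet (CD) and the KD in alternate weeks from 12 months of age, and tissue was taken in a week of CD feeding. The 8 CD livers serve as further libraries that the division did not use. They came from mice of 26 months fed only the CD from 12 months of age. Each library measured RNA of a whole liver piece after removal of ribosomal RNA, so all liver cell types contributed to it. The labels give no batch, extraction day or cage, and p-values measure the spread between these libraries. The 2 sets of KD livers differ by a measured value and not by a treatment.

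Gm10800 is annotated as a single protein-coding gene on chromosome 2, but its sequence is repetitive. Mouse chromosomes carry long tandem arrays of the major satellite, a repeat of the DNA beside the centromere, and pieces of such arrays in the assembled genome can receive gene models. Reads from many copies of a repeat are then assigned to the few models that hold it. Most mammalian tissues keep large gene families silent, such as the olfactory and vomeronasal receptors, so a liver library normally holds few counts in them. The mitochondrial genome and the short nucleolar RNAs are highly transcribed classes that were followed for contrast.

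The start of the Gm10800 transcript is shown beside that of Gm21738, because the first carried the signal and the second, on another chromosome, shares much of its letters. Both were read from the GENCODE vM21 transcripts of GRCm38, 5′ to 3′, first 234 bases of each. Capitals mark bases inside words of 15 bases that also occur in the other transcript.
Gm10800 (chr2:98666547-98667301, minus strand): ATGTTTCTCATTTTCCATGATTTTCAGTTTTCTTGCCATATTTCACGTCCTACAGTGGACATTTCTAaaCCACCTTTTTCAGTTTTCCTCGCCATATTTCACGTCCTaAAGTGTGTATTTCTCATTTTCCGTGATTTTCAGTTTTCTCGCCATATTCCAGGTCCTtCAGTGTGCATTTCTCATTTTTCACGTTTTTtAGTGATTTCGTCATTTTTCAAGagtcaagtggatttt
Gm21738 (chr14:19415857-19418930, minus strand): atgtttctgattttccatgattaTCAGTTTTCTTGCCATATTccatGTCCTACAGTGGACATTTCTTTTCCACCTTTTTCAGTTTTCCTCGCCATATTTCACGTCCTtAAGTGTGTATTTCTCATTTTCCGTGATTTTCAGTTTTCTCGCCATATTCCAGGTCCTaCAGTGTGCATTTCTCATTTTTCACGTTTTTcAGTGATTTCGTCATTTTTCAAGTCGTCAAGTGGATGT
Capitals cover 214 of the 234 bases of Gm10800 and 204 of those of Gm21738. Each transcript was also compared with itself at shifts between 100 and 400 bases, and the best shift is given. Shifted by 225 bases, Gm10800 matched itself at 56.3% of its positions, and Gm21738 matched itself at 62.4% after a shift of 234 bases. How far these values exceed those of a sequence without repeats was not tested. The GC content was 35.9% and 35.2%.

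Gm10800 took 2.39%, 2.27%, 1.72%, 1.23% and 1.35% of the total count in KD replicates 10, 11, 14, 15 and 16. It took 0.00367%, 0.00217% and 0.00173% in replicates 9, 12 and 13. These values made the sets and were not tested. The library nearest above the limit was replicate 15 and the nearest below was replicate 9, so no library lay near 0.1%. Among the CD livers only replicate 1 exceeded the limit, at 1.61%, and the other 7 lay between 0.00203% and 0.0058%. The total counts also differed between the sets. They ranged from 6879726 to 9202541 in the livers with signal and from 10199783 to 11786410 in those without, with no overlap, and CD replicate 1 had 8090281. The part of depth in the results below was not tested.

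**Figure D1:**
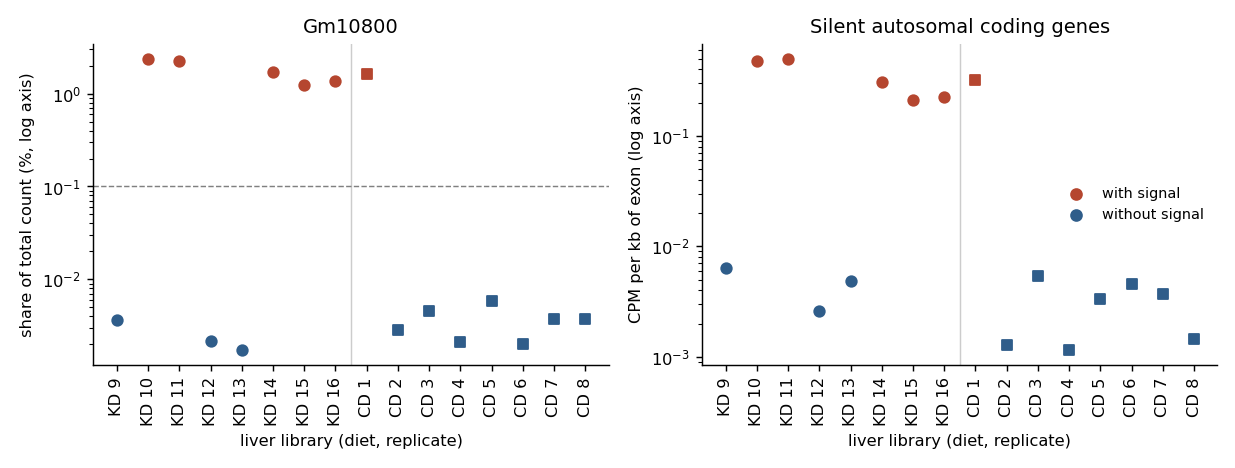
Left, the share of Gm10800 in the total count (%, log axis) in each liver library, with the limit of 0.1% dashed. Right, the count rate in silent autosomal coding genes (CPM per kb of exon, log axis). Circles are KD and squares CD livers, red with and blue without signal. KD replicates 10, 11, 14, 15 and 16 and CD replicate 1 stand above the other 10 livers in both panels.

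Gm10800 did not stand alone. A search of all annotated transcripts for words of 15 bases found 12 further genes that shared 41.2% to 61.7% of their words with Gm10800, 10 of them on chromosome 9, 1 on chromosome 2 (Gm10801) and 1 on chromosome 14 (Gm21738). All 12 were higher in every liver with signal than in every liver without, and since they share sequence with the gene that made the sets, their values are a description and the calls that the fit across all genes gave them, 4 of them among its expressed genes, support nothing. Counts can move between such near copies during assignment, so the values of single members are uncertain. Gm21738 averaged 1610 counts per 1000000 counts of the library (CPM) in the livers with signal (SD 533, n = 5) against 3.86 CPM in those without (n = 3). Gm10801 averaged 1420 CPM against 2.43 CPM, and Gm26870, whose shared words lie on its opposite strand, 751 against 2.26 CPM. For the 8 further genes with more than 3 counts over the livers without signal, the ratio of the means ran from 333 to 586. The lowest of the family was Gm10721, with a mean of 1.65 CPM in the livers with signal and no count in the others.

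The question of the comparison is which other RNA classes go with this signal. Genes were graded on the 8 CD livers, which the rule did not use: 26905 genes had a median count of 0 and are called silent, 17193 had a median of at least 1 CPM and are called expressed, and 10347 lay between (low). Silent genes held 0.636% to 1.54% of the count in the livers with signal and 0.0148% to 0.0284% in those without. The sets did not overlap, the difference of means was 1.03 percentage points, and the two-sided exact permutation test gave p = 0.0357, the smallest value that 5 against 3 libraries allow (adjusted over 6 classes, p = 0.107). CD replicate 1 had 0.991% and the other CD livers had at most 0.0268%. The class was defined on these 8 CD livers, so low values in most of them follow in part from the definition. The counts were spread over many genes. A count above 0 was found for 16216 to 20463 silent genes in the livers with signal and for 1187 to 1911 in those without.

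The receptor genes of smell, taste and pheromone sensing showed the same contrast. Of 1774 such genes, 1616 were silent in CD livers. They took 0.124% to 0.265% of the count with signal and 0.0137% to 0.021% without (n = 5 and 3), again without overlap (exact permutation p = 0.0357, adjusted p = 0.107). Between 1596 and 1711 of them had a count in each liver with signal, against 108 to 150 in the others and 1662 in CD replicate 1. The low genes held 0.733% to 1.69% with signal and 0.334% to 0.467% without.

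Per length, the counts in silent genes were found in every gene class. Across 4759 silent protein-coding genes of the autosomes, the rate was 0.482, 0.502, 0.306, 0.212 and 0.223 CPM per kb of exon in replicates 10, 11, 14, 15 and 16. In replicates 9, 12 and 13 it was 0.00633, 0.00262 and 0.00482. Replicates 10 and 11, which had the highest Gm10800 shares, also had the highest rates, and 1 CPM per kb went with a Gm10800 share of 4.52% to 6.08% in the 5 livers and of 5.0% in CD replicate 1. In the livers with signal, receptor genes on autosomes averaged 0.292 ± 0.112 (SD, n = 5), processed pseudogenes 0.396 ± 0.164, unprocessed pseudogenes 0.374 ± 0.147, long intergenic RNAs 0.455 ± 0.188 and unconfirmed loci (TEC) 0.305 ± 0.127 CPM per kb. Short RNAs were highest, at 0.679 ± 0.26 CPM per kb, on genes with a median exon length of 106 bases. Coding genes with 1 block of exon had 0.243 ± 0.101 and those with over 5 blocks 0.418 ± 0.169, and this order held in each of the 5 livers. In 4 bins of GC content the coding genes had 0.28, 0.36, 0.407 and 0.374 CPM per kb from the lowest to the highest GC, and in 4 bins of length 0.411, 0.389, 0.351 and 0.322 from the shortest to the longest.

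The chromosomes were not alike. The 19 autosomes lay between 0.276 (chromosome 18) and 0.436 (chromosome 15) CPM per kb, averaged over the 5 livers with signal. The 402 silent coding genes of the X chromosome had 0.239, 0.246, 0.154, 0.0951 and 0.11 CPM per kb in replicates 10, 11, 14, 15 and 16, and CD replicate 1 had 0.146. The X rate was 0.448 to 0.503 of the autosomal rate in the livers with signal, below every autosome on average. Male mice carry a single X chromosome and a pair of each autosome. The 177 silent coding genes of the Y chromosome, many of them in near-identical copies, were at 0.0539 to 0.115 CPM per kb, a ratio to autosomes of 0.191 to 0.266. In the livers without signal the X ratio ranged from 0.396 to 1.57 on rates of at most 0.00412 CPM per kb on the X, too few counts for an order. Where the counts in silent genes came from was not tested.

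**Figure D2:**
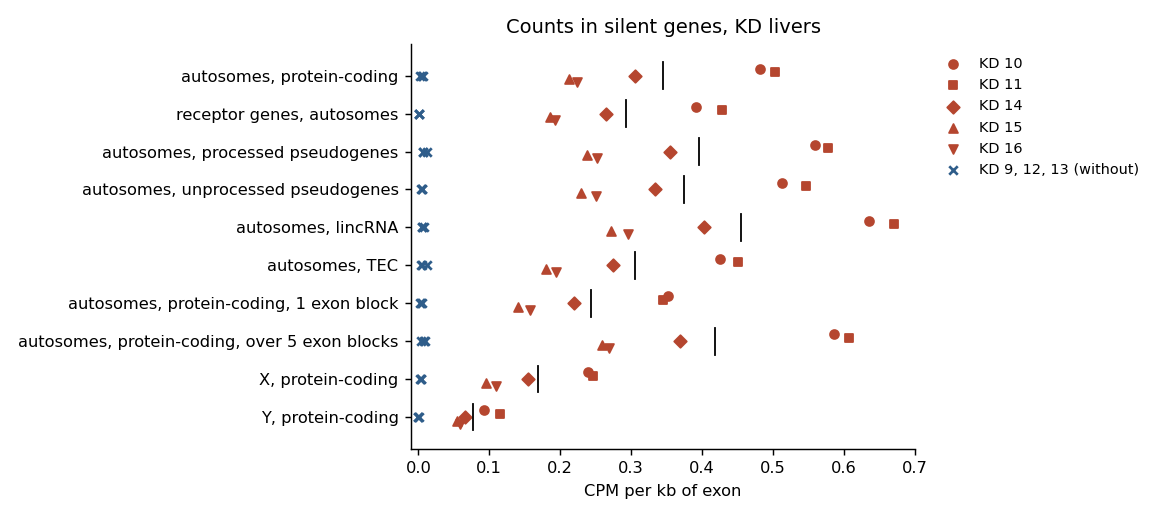
Count rate in silent genes (CPM per kb of exon, x axis) by gene class (y axis) in the KD livers. Red symbols are the 5 livers with signal, black bars their mean, and blue crosses the 3 livers without. Autosomal coding genes averaged 0.345 CPM per kb, X-linked ones 0.169 and Y-linked ones 0.0773, and the crosses lie near 0.

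Single silent genes with the highest means, beside members of the Gm10800 family, were long genes of other tissues. Vmn2r76, a vomeronasal receptor, had 14.1, 14.3, 6.98, 7.94 and 6.11 CPM in replicates 10, 11, 14, 15 and 16 and no count in replicates 9, 12 and 13. Abca12, a lipid transporter of the skin, had 12.1, 9.78, 8.87, 6.58 and 4.03 CPM and likewise none. Otog, a protein of the membranes of the inner ear, had 11.5, 9.02, 6.25, 3.06 and 4.68 CPM against none. All were absent from the livers without signal and present in each of the others, as in CD replicate 1, where they stood at 6.55, 7.66 and 5.81 CPM. Set against a floor of 3 counts over the 3 livers without signal, Vmn2r76 was at least 108-fold higher and Abca12 at least 89.8-fold. These genes were picked by their means in the livers with signal, so the folds are a description. The silent-gene rate over the exon length came to 9.02 CPM for Vmn2r76, whose mean was 9.9 CPM. It came to 5.04 CPM for Abca12 and 3.52 CPM for Otog, below their means of 8.26 and 6.9 CPM. Muc5ac, a secreted mucin of airway and stomach, had 3.77 to 9.42 CPM with signal and 1 count in the 3 other livers together.

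Markers of other tissues were also called. All 8 tested markers of skeletal and heart muscle were called higher, 7 of 10 tested neuron markers, 5 of 10 adipocyte markers, 4 of 10 mesothelial markers, 2 of 3 pancreatic acinar markers, 2 of 5 intestinal and 2 of 3 germ cell genes, beside 18.6% of all 21964 genes tested. Only 2 of the muscle and 2 of the neuron markers tested were expressed in CD livers. Among all genes tested, 1890 of 1903 silent, 1749 of 3031 low and 446 of 17030 expressed genes were called higher. For lists rich in silent and low genes, 18.6% is thus too low a share for comparison. Silent and low genes passed the filter on low counts through the livers with signal, so these marker counts are a description. The adipocyte markers differed from the rest in level, with a sum of 1210 to 2350 CPM with signal and 253 to 1370 CPM without. These ranges overlapped. Of the 10 markers 5 were expressed genes, but none of those was called higher. The calls fell on Adipoq, Cfd, Lep, Plin1 and Retn, which were silent or low genes. Myh4, a myosin of fast muscle, had 7.36, 5.76, 2.76, 2.61 and 3.25 CPM against none. Gad1, which makes the neurotransmitter GABA, had 2.6 to 5.54 CPM against 0 to 0.196 CPM, and the silent-gene rate over its exons came to 2.6 CPM. Lep, the adipocyte hormone leptin, had 1.43 to 2.99 CPM against none, with 1.14 CPM from the rate.

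Expressed genes were counted apart. The edgeR quasi-likelihood test on the 8 libraries called 446 of 17030 expressed genes higher and 472 lower in the livers with signal at a Benjamini-Hochberg adjusted p under 0.05, which is 2.62% and 2.77%. Over all 21964 genes tested it called 4085 higher and 473 lower (18.6% and 2.15%), of which 1890 and 0 were silent. Both counts of expressed genes moved with the genes admitted to the fit. With expressed genes alone in the fit, 50 were higher and 0 lower (1292 and 1285 at an unadjusted p under 0.05). With at least 10 counts asked in every library, 6 expressed genes were higher and 0 lower (982 and 1102 unadjusted), while DESeq2 called 656 higher and 1597 lower.

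The expressed genes called higher were mostly long and barely expressed. Their median was 4.72 CPM with and 1.5 CPM without signal, 398 of the 446 had under 5 CPM without signal, and their median exon length was 5204 bases against 3782 over the expressed genes tested. For 370 of the 446 the difference in CPM was at most 3 times the silent-gene rate over the same exon length, whose median was 1.77 CPM. Dnah10, a motor protein of cilia, had 12.8, 13.1, 6.98, 5.67 and 5.59 CPM with signal and 0.17, 0.588 and 0.283 CPM without. The rate over its exons came to 5.48 CPM. Muc5b, the other large airway mucin, had 5.67 to 13.1 CPM against 0.49 to 0.848 CPM, and the rate over its exons was 5.09 CPM. The filter on low counts asked for 1.11 CPM in at least 3 libraries. Of the 446 genes, 244 did not reach that level in all 3 livers without signal, and so were tested only because of the livers with signal. Dnah10, Muc5b, Col7a1, Dnah9, Cfap61, Myo3b, BC051142, Wscd2, Dnah6, Ptprt, Glp2r and Fndc1, all among the genes of lowest p, belong to these, and their calls are given as a description with no test. The other 202 reached the level in all 3. Sspo, a large protein of the cerebrospinal fluid, is one of them, with 16.3, 14.3, 13.8, 8.73 and 11.2 CPM against 3.56, 3.24 and 2.54 CPM (log2 fold change 2.04 ± 0.21 SE, edgeR adjusted p = 0.000847). Of all 446 genes called higher, 397 did not overlap between the sets, where 4.22% of all expressed genes (19.9% of all genes tested) had every liver with signal above every liver without.

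When each library's silent-gene rate times the exon length was taken off the counts before the fit, 16542 expressed genes were tested. Of the 10 called lower, 4 were among the 472 called lower without this step. Of the 446 genes, 19 remained called higher. That count did not leave out the Gm10800 family or genes tested only because of the livers with signal, so it is a description. Dnah10, Muc5b, Col7a1, Dnah9, Myo3b, BC051142, Dnah6 and Fndc1 are genes tested only because of the livers with signal. Their calls in this fit are again given as a description with no test. Sspo (edgeR adjusted p = 0.029) and Muc6 (0.017), which reached 1.11 CPM in all 3 livers without signal, kept their calls. Muc6, a gastric mucin, had 21.3, 18.7, 12.6, 13.8 and 14.4 CPM with signal and 5.6, 6.47 and 5.09 CPM without, while the rate over its exons was 3.19 CPM (log2 fold change 1.49 ± 0.17, edgeR adjusted p = 0.000953). In CD replicate 1 it was at 13.7 CPM, inside the 4.65 to 17.8 CPM of the other CD livers. Mroh2a, chosen after its values were seen, had 64.1, 58.4, 39.7, 35 and 39.8 CPM against 22.9, 19.4 and 18.6 CPM, with 2.89 CPM from the rate (log2 fold change 1.21, adjusted p = 0.00107 and 0.0219 with the rate taken off). CD replicate 1 had 46.4 CPM of Mroh2a and the other CD livers 16.2 to 22 CPM, so the 6 livers with signal were the highest of the 16.

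**Figure D3:**
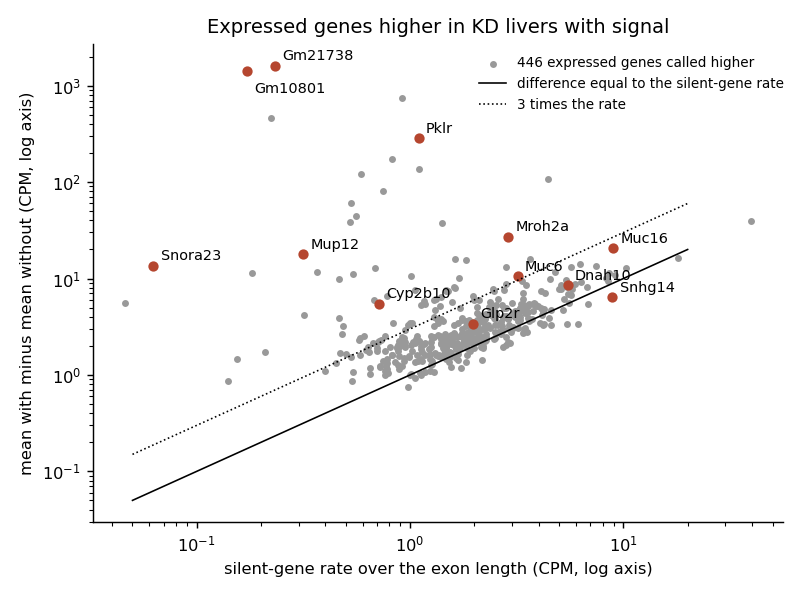
Each point is an expressed gene called higher in the KD livers with signal (446 genes). The x axis is the silent-gene rate over its exon length (CPM, log axis) and the y axis the difference of the mean CPM (log axis), with the line of equality and the dotted line of 3 times the rate. Named genes are red, Gm21738 and Gm10801 belong to the Gm10800 family, and most points lie between the lines.

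Among the named genes, 5 of liver metabolism and secretion were higher by more than 3 times that rate. Pklr, the liver enzyme of the last step of glycolysis, had 260, 502, 599, 365 and 607 CPM with signal against 238, 205 and 99.6 CPM (log2 fold change 1.43 ± 0.38, adjusted p = 0.0237). Its lowest value with signal was only just above the highest without, and CD replicate 1 stood at 207 CPM, inside the range of the other CD livers. Mup12, a major urinary protein, had 1.15, 6.63, 22.4, 33.1 and 29.6 CPM against 0.17, 0.882 and 1.13 CPM, and Mup1 had 0.919 to 23 CPM against 0.255 to 1.22 CPM. Replicate 10 was the lowest of the livers with signal for both. Its Mup1 level lay below the highest level without signal. Major urinary proteins are near-identical copies, so their single values are uncertain, and their summed level overlapped between the sets (1480 to 5050 CPM against 1490 to 2270 CPM). Cyp2b10, a drug-metabolizing cytochrome P450, had 3.22 to 9.49 CPM against 0.471 to 2.45 CPM. Mup12, Mup1 and Cyp2b10 did not reach 1.11 CPM in all livers without signal, so their calls are a description. Cyp4a12a, a fatty acid hydroxylase of male liver, had 20.1 to 389 CPM against 14.7 to 33.9 CPM (3.14 ± 0.89, adjusted p = 0.0325). The calls of these 5 genes were lost with the rate taken off (adjusted p from 0.118 to 0.247) and with expressed genes alone in the fit (0.143 to 0.198). Pklr also lost its call without replicate 11, 13, 14 or 16 (adjusted p from 0.0526 to 0.0729), and Cyp4a12a without any single replicate but 10 or 12 (0.0526 to 0.0987).

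Most other metabolic lists held no call. None of 26 genes of PPAR alpha targets and ketone body formation, 24 of cholesterol synthesis, 22 of fatty acid and triglyceride synthesis, 19 of the urea cycle and amino acid breakdown, 13 of pericentral hepatocytes, 17 of bile acid synthesis and transport, 20 of secreted hepatocyte proteins or 20 of the circadian clock passed. The same held for 30 nuclear genes of the respiratory chain, 35 cytosolic ribosomal proteins and 23 genes of heat shock and endoplasmic reticulum stress. Absence of a call was not absence of direction. All 30 respiratory chain genes had a fold change above 0 (median log2 0.18) and 0 of the 35 ribosomal proteins did (median -0.13). The median over all expressed genes tested was -0.05. Yet the summed levels overlapped between the sets. They were 2690 to 3680 CPM with signal and 2790 to 3270 CPM without for the respiratory chain. For the ribosomal proteins they were 3240 to 4050 CPM and 3900 to 4520 CPM. Genes of a list can vary together, so their signs are not separate agreements. Among 15 periportal genes Aldh1b1 and Ctsc were lower, and among 25 of the cell cycle Cdkn1a was. Fabp1, the fatty acid binding protein of liver, had 555 to 792 CPM with signal and 246 to 510 CPM without, without overlap (0.73 ± 0.26, adjusted p = 0.0857). Slco1a1, an uptake transporter of hepatocytes, had 34.2 to 599 CPM against 49.5 to 117 CPM (adjusted p = 0.0573), with replicate 10 the lowest of all 8. Albumin and the other secreted hepatocyte proteins summed to 51700 to 66400 CPM with signal and to 55000 to 73000 CPM without, so both sets were liver by these markers.

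The expressed genes called lower were of another kind. Their median was 35.4 CPM with and 60.8 CPM without signal, the median log2 fold change was -0.71, and 107 of the 472 did not overlap between the sets, where 2.4% of all expressed genes had every liver with signal below every liver without (1.88% of all genes tested). Aldh1b1, a mitochondrial aldehyde dehydrogenase, had 35.7, 22.5, 21.7, 22.4 and 19.9 CPM with signal and 76.1, 40.5 and 56.7 CPM without (log2 fold change -1.25 ± 0.19, adjusted p = 0.00138). Among the 15 named genes of this direction it was joined by Snx10, a sorting protein of endosomes, with 38.3 to 62.3 CPM against 68.3 to 102 CPM (-0.94 ± 0.16, adjusted p = 0.00219), and by Il13ra1, a receptor subunit for interleukins, with 48.2 to 82.9 CPM against 96.4 to 161 CPM (-1.19 ± 0.2, adjusted p = 0.00228). None of the 15 was called with expressed genes alone in the fit, where their adjusted p ran from 0.0561 (Aldh1b1) to 0.101 (Grn). With the rate taken off, Aldh1b1 (adjusted p = 0.0417), Lcn2 (0.0471) and Mt1 (0.0486) kept their calls and the other 12 did not.

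Acute phase genes, which the liver secretes in inflammation, made up part of the lower calls. Of 21 tested, 7 were lower and 0 higher (Apcs, Lcn2, Orm2, Saa1, Saa2, Socs3, Steap4). The share lower was 2.15% over all genes tested and 2.77% over expressed genes, to which 20 of the 21 belong. The median log2 fold change of the list was -1.42, beside 0.06 over all genes tested and -0.05 over expressed ones. With expressed genes alone in the fit 0 of the 21 were called, and with the rate taken off 1. Lcn2, an iron-sequestering protein, had 31.8, 7.17, 7.99, 18.8 and 12 CPM with signal and 45.2, 221 and 684 CPM without (-4.48 ± 0.78, adjusted p = 0.00256). Orm2, an acute phase plasma protein, had 9.16 to 17.1 CPM against 33.2, 95.1 and 811 CPM in replicates 9, 12 and 13 (-4.8 ± 0.89, adjusted p = 0.00355). Replicate 13 was the highest for both. Mt1, a metal-binding metallothionein, followed the same order, with 6.52 to 21.7 CPM against 29.3, 88.4 and 275 CPM. Without replicate 13 the calls were kept at smaller size, -3.06 for Lcn2 and -2.33 for Orm2. The other 7 CD livers spanned 14.9 to 1630 CPM of Lcn2 and 20.3 to 406 CPM of Orm2, and CD replicate 1 lay below them all at 11.2 and 8.53 CPM.

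Markers of resident macrophages were lower too. Of 14 Kupffer cell markers, all expressed genes, 12 were called lower (median log2 fold change -1.70), beside 2.15% of all genes and 2.77% of expressed ones. However, only 1 of the 14 had every liver with signal below every liver without. Cd5l, a protein secreted by these cells, had 97.1, 52.3, 21.7, 43.3 and 46.8 CPM against 166, 243 and 72.9 CPM (-1.64 ± 0.39, adjusted p = 0.0139). Vsig4, a complement receptor, had 30.1 to 104 CPM against 155, 523 and 58.8 CPM in replicates 9, 12 and 13 (-2.25 ± 0.57, adjusted p = 0.0189). Replicate 10 lay above replicate 13 for both genes. The call of Vsig4 was lost without replicate 11, 12, 14 or 16 (adjusted p from 0.0515 to 0.0817) and that of Cd5l without 11 (0.0586). The summed level of the list was 472 to 1430 CPM with signal and 894 to 4240 CPM without, and replicate 12 was the highest. Fewer macrophages and less RNA per macrophage cannot be told apart in whole tissue. No member kept a call with expressed genes alone in the fit or with the rate taken off.

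Of 29 genes of the inflammatory response, all expressed, 9 were lower (Ccl6, Ccl9, Cxcl1, Cxcl13, Icam1, Il1a, Tlr2, Tlr4, Vcam1). The share lower was 2.15% of all genes and 2.77% of expressed ones. Only 1 of the 29 had every liver with signal below every liver without, and none was called with expressed genes alone or with the rate taken off. The summed level of the list was 606 CPM in replicate 10, above the 380 CPM of replicate 13. Further lists had fewer calls, and those too were lost in both of these fits. Lower were 3 of 27 interferon-induced genes (Ifit2, Mx1, Oas2), 3 of 15 markers of monocytes and recruited macrophages, 3 of 18 immediate early genes (Btg2, Fosl2, Junb), 3 of 9 erythroid markers and 2 of 14 endothelial markers. Oas2, an antiviral enzyme, had 118 CPM in replicate 12 and between 7.41 and 15.8 CPM in the 7 other KD livers, and its call (-2.17 ± 0.63, adjusted p = 0.0362) was lost without that library (-0.52, adjusted p = 0.252). Cxcl1, a neutrophil attractant, had 5.23 to 11.5 CPM with signal and 7.89, 35.9 and 64.6 CPM without, and its call was lost without replicate 13 (adjusted p = 0.0788). Of 10 neutrophil markers only Ly6g was called, a low gene with 1 count over the livers without signal that was tested only because of the livers with signal. None of 16 T and NK cell, 13 B and plasma cell, 14 stellate cell and fibroblast or 14 bile duct markers was called. S100a8 of neutrophils was not called, at 1.09 to 2.18 CPM against 2.46, 7.65 and 1.13 CPM, and Krt19 of bile ducts split otherwise, at 9.88, 8.23 and 13.5 CPM in replicates 10, 9 and 13 and at 0.49 to 1.45 CPM in the rest.

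**Figure D4:**
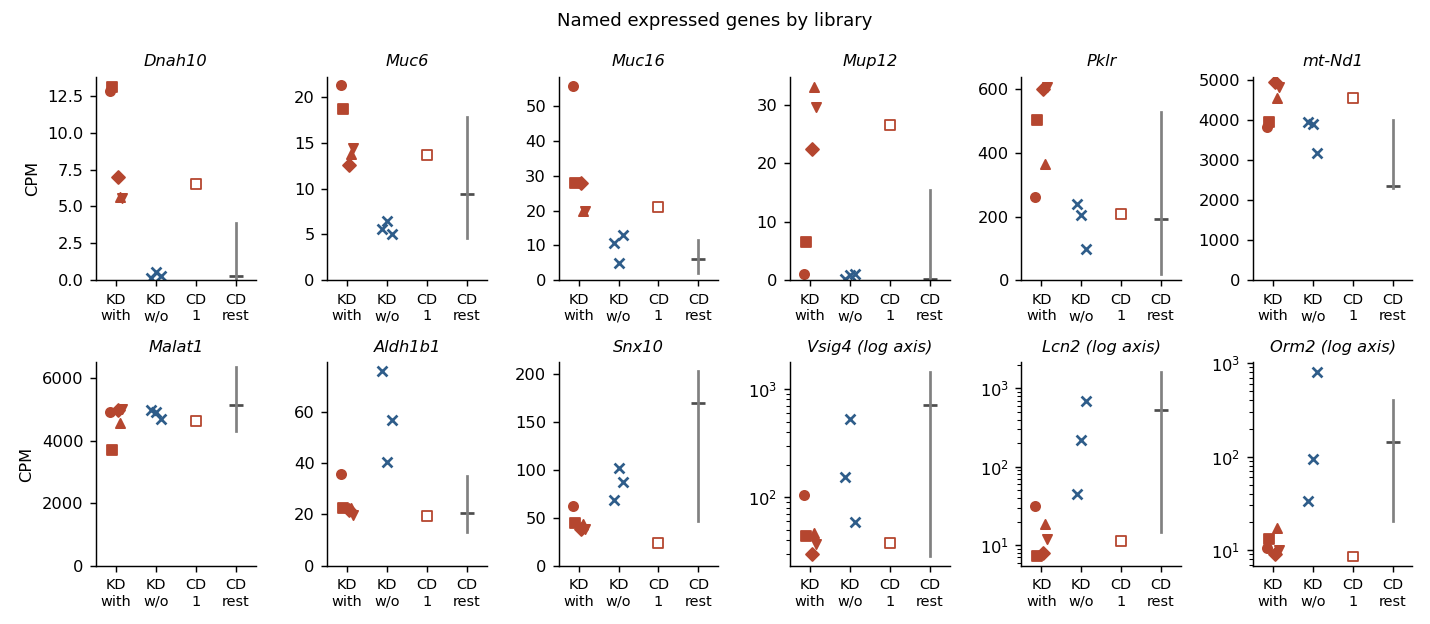
CPM of 12 named genes (y axes start at 0 except the 3 marked as log axes). Red symbols are the KD livers with signal (circle 10, square 11, diamond 14, triangle up 15, triangle down 16), blue crosses the KD livers without, the open square CD replicate 1, and the grey line the range of the other 7 CD livers with its median. Dnah10 is separated between the KD sets, whereas Vsig4, Lcn2 and Orm2 vary most among the livers without signal.

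The mitochondrial genome was not separated by the signal among the KD livers. Its coding and ribosomal RNA genes took 2.67% to 4.12% of the count with signal and 2.61% to 2.96% without (means 3.57% ± 0.643 and 2.81% ± 0.18, SD, n = 5 and 3), a difference of 0.76 percentage points with an exact permutation p of 0.143 (adjusted p = 0.171). Replicate 10 was the only liver with signal below the highest without. In CD replicate 1 the share was 3.97%, above the 1.68% to 3.07% of the other CD livers. Of the 13 protein-coding genes, 7 exceeded 100 CPM. mt-Nd1, a subunit of respiratory complex I, had 3830, 3950, 4930, 4550 and 4820 CPM with signal and 3950, 3900 and 3170 CPM without (log2 fold change 0.29 ± 0.26, adjusted p = 0.509). mt-Co1 of complex IV had 7250 to 11000 CPM against 6880 to 7720 CPM and mt-Cytb of complex III 3690 to 6340 CPM against 3180 to 4280 CPM. All 7 had a fold change above 0, from 0.29 to 0.49, and none was called (lowest adjusted p = 0.249). Replicates 10 and 11, the highest in Gm10800 and in silent genes, were the lowest of their set in mt-Nd1, so within the livers with signal mt-Nd1 did not follow it. The 6 other coding genes, among them mt-Co2 and mt-Atp6, reached at most 1.6 CPM in any KD liver, and their counts are uncertain because nuclear copies exist. The pseudogenes Gm28437, Gm10925, Gm28661 and Gm29216 on chromosome 1 held 2.17 to 9.3 CPM.

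Short RNAs (nucleolar, Cajal body, spliceosomal and micro RNAs, 5143 genes) did not follow the signal as a class. They held 0.142% to 0.226% with signal and 0.118% to 0.252% without (exact permutation p = 0.786, adjusted p = 0.786). Gm23935 had 738 CPM in replicate 16 and 1200 CPM in replicate 13, against 50.8 to 142 CPM in the 6 other KD livers, and Mir6236 was highest in the same pair of libraries (147 and 176 CPM against 12.0 to 26.9 CPM). Without these 2 genes, a choice made after seeing them, the class held 0.13% to 0.173% with signal and 0.109% to 0.118% without, so the sets no longer overlapped. CD replicate 1 then had 0.133% and the other CD livers 0.0963% to 0.123%. With the 2 genes it had 0.146%, inside the 0.108% to 0.235% of the others. Snora23, which guides a chemical change of ribosomal RNA, had 47.2, 40.5, 46.7, 46.8 and 49.1 CPM against 32.2, 34.7 and 30.6 CPM (log2 fold change 0.51 ± 0.13, edgeR adjusted p = 0.0207). The rate over its exon was 0.0626 CPM, far below the difference, and its call was kept with the rate taken off (adjusted p = 0.0302) but not with expressed genes alone (0.124). Snord118, the U8 RNA of ribosome assembly, had 13.4 to 18.8 CPM against 8.92 to 10.2 CPM (0.67 ± 0.2, adjusted p = 0.0387), and lost its call with the rate taken off (0.11) and with expressed genes alone (0.178). Leaving out single replicates raised the adjusted p to as much as 0.0816 for Snora23 (without 9) and 0.115 for Snord118 (without 12). These were the only calls among 187 short RNAs tested (median log2 fold change 0.08). The silent short RNAs alone took 0.0171% to 0.0399% with signal and at most 0.00226% without.

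Malat1 and Neat1, abundant RNAs held in the nucleus, were not called. Malat1 had 4930, 3700, 4980, 4580 and 5020 CPM with signal and 4980, 4910 and 4680 CPM without (-0.06 ± 0.25, adjusted p = 0.913). Neat1, the scaffold of paraspeckles, ranged from 5240 to 12300 CPM and from 5120 to 10700 CPM (-0.02 ± 0.38, adjusted p = 0.98). Miat and Snhg14 of the same list were called higher, and Miat, a low gene, was tested only because of the livers with signal. The rate over their exons came to 3.16 and 8.88 CPM, while the mean differences were 1.72 and 6.42 CPM. Replication-dependent histones held 0.04% to 0.0462% against 0.0446% to 0.0663% (exact permutation p = 0.107, adjusted p = 0.161). CD replicate 1 had 0.036%, just below the 0.0368% to 0.13% of the other CD livers. The 10 highest genes of each library held 10.3% to 11.9% against 8.35% to 10.4% (exact permutation p = 0.0714, adjusted p = 0.143). Gm10800, which made the sets, was not left out of these 10. At 12300 to 23900 CPM it was among them in every liver with signal, so this test decides nothing about other genes.

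The CD livers gave libraries outside the division. With CD replicate 1 against the other 7, edgeR called 1136 of 23170 genes higher (4.9%) and 0 lower (122 lower at an unadjusted p under 0.05), with 28 expressed genes among the higher ones. This compares 1 library with 7, whose spread it is assumed to share. Of the 446 expressed genes called higher in KD livers with signal, 411 (92.2%) had a fold change above 0 in CD replicate 1, beside 50.4% of all expressed genes. Of the 472 called lower, 455 (96.4%) had one below 0, beside 49.6%. Scaled by total counts alone, 391 and 464 did, beside 39.3% above and 60.7% below 0. Dnah10 stood at 6.55 CPM in CD replicate 1 and at 0.08 to 3.85 CPM in the others, and Aldh1b1 at 19.4 CPM inside their range of 13 to 34.9 CPM. Vsig4 was at 37.5 CPM against 28.4 to 1440 CPM. The KD and CD sets share no library. The other CD livers were not alike, with 482 to 9340 CPM for the sum of the Kupffer cell list, beside 555 CPM in CD replicate 1. Genes that vary together from liver to liver take one sign together, so the 411 and 455 genes are not separate agreements.

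Brains of the same series carried the signal at 26 months in graded amounts. The brains of 26 months came from 8 CD and 8 cyclic KD mice on the same regimens as the livers, and those of 12 months from 5 mice on CD and 7 on KD for a week. Gm10800 took 0.0347% to 1.22% of the count in the 16 brains of 26 months and at most 0.0017% in the 12 brains of 12 months. Silent genes, here those with a median count of 0 in the 12 younger brains, rose with it. Over the 16 libraries Pearson's r between the shares was 0.975 and Spearman's rho 0.974 (permutation p = 1.0e-05 for each, the smallest that 100000 permutations can give, adjusted over 12 relations 6.0e-05). Within the 8 CD brains r was 0.987 (exact permutation p = 6.9e-04, adjusted p = 0.0014) and within the 8 KD brains 0.968 (6.2e-04, adjusted p = 0.0014). Without the 2 libraries farthest from the median Gm10800 share, r over the remaining 14 was 0.922. Receptor genes gave r = 0.985, rho = 0.991 and 0.957 without those libraries (permutation p = 1.0e-05, adjusted p = 6.0e-05), and 0.994 and 0.973 within the diets.

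Short RNAs and the mitochondrial genome were weaker in the brains. For short RNAs r was 0.709 (permutation p = 0.0027, adjusted p = 0.0047) and rho 0.503 (p = 0.05, adjusted p = 0.085), and r was 0.257 without the 2 farthest libraries, so the relation rested on them. Within the diets it was 0.809 in CD brains (adjusted p = 0.05) and 0.59 in KD brains (adjusted p = 0.13, exact permutation tests). For the mitochondrial genome r was 0.447 (permutation p = 0.08, adjusted p = 0.098) and rho 0.462 (p = 0.073, adjusted p = 0.11), with 0.617 after removal of the 2 farthest, 0.605 in CD and 0.257 in KD brains. The X rate was 0.422 to 0.803 of the autosomal rate in these brains, with a median of 0.491. Brains and livers are labelled with overlapping replicate numbers, but the labels do not say that a number marks one mouse. The brains labelled KD replicates 12 and 13 had Gm10800 shares of 0.535% and 0.654%, while the livers so labelled were without signal.

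**Figure D5:**
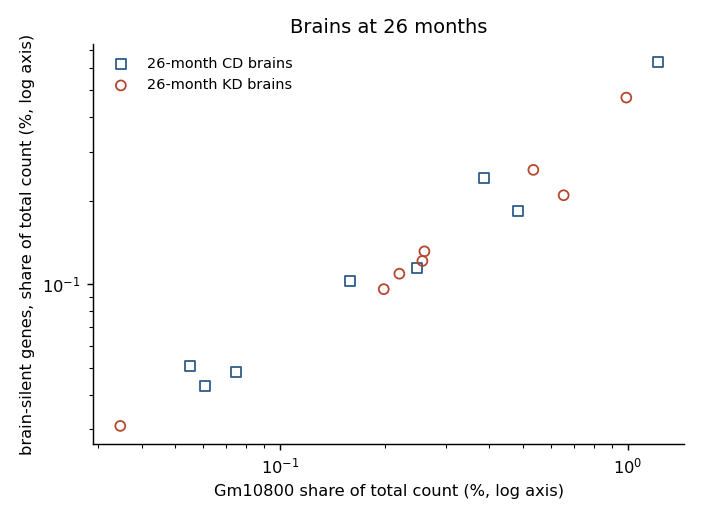
Share of Gm10800 (%, log axis) against the share of brain-silent genes (%, log axis) in the 16 brains of 26 months, blue squares CD and red circles KD. The points rise together from the KD brain at 0.0347% of Gm10800 to the CD brain at 1.22%, with r = 0.987 in CD and r = 0.968 in KD brains.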

How the data were processed

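Liver and brain RNA was sequenced after removal of ribosomal RNA (KAPA RNA HyperPrep, QIAseq FastSelect). Per the submitters' processing notes and the study's methods, the authors trimmed reads with Trimmomatic, aligned them to GRCm38 with STAR and made a matrix of raw counts per gene with RSEM. Versions and strand setting are not given in the sources used here. The deposited counts are whole numbers without normalization, for 54446 Ensembl identifiers in 44 libraries, of which 54409 were found in GENCODE vM21. Reads of repeats and near copies may be assigned to few gene models, and counts without molecular identifiers are not independent molecules.

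Libraries were sorted by Gm10800's share of the total count. CPM are counts per 1000000 of the total count. Silent, low and expressed genes were defined on the 8 CD livers (expressed: median of at least 1 CPM). The silent-gene rate is the summed CPM of silent coding genes of the autosomes divided by their exon length, without the Gm10800 family (genes sharing at least 10% of their 15-base words). The rate over a gene's exons is the mean rate with minus without signal times its exon length. Counts were fitted in edgeR 4.0.16 (R 4.3.3; filterByExpr, TMM, quasi-likelihood F test, Benjamini-Hochberg over all genes tested, adjusted p under 0.05), with Gm10800 left out of all calls. Fold changes are log2, with minus without, with the standard error. Class shares were compared by two-sided exact permutation tests over the 56 groupings (scipy 1.17.1), and relations in brains by 100000 permutations, or exactly with 8 libraries, where the planned number of permutations exceeded all orders. On simulated counts of 20406 genes, the fit recovered 18 of 99 genes changed by 1 and 75 of 95 changed by 2 on the log2 scale, with 5 false calls. Library pairs of one diet differed by more than counting noise (chi-square per degree of freedom at least 7.52), so each library was counted as its own sample.

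Genes named were Gm10800, the 10 highest silent genes, for either direction the 15 expressed genes of lowest p (predicted genes and pseudogenes left out), the 2 members of lowest p in each of 37 lists, the mitochondrial coding genes, 5 short RNAs by level and 5 by p, Malat1, Neat1, Krt19 and S100a8. Genes the comparisons do not turn on are not described singly, and 2 were left out. The members and lists were chosen with earlier results of these data known. Alternatives were other scalings and filters, DESeq2 1.42.0, limma 3.58.1, all 16 livers in one fit and each liver left out. A further pair (expressed genes alone, silent-gene rate taken off) were chosen after seeing the data.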

Additional observations from a re-analysis of the deposited data

Results flagged for a closer look

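CD replicate 1 lay far from the 7 other CD livers in Gm10800 (1.61% against at most 0.0058%), in the rate of silent autosomal coding genes (0.323 against at most 0.00538 CPM per kb), in silent genes (0.991% against at most 0.0268%) and in receptor genes (0.178% against at most 0.024%). Silent genes were graded on the CD livers themselves, so low silent-gene values in most of them follow in part from the definition. CD replicate 5 lay apart in short RNAs (0.235% against at most 0.146%).

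Among the 130 genes examined over the 5 KD livers with signal, 20 had a library apart from the other 4, where chance flags about 1 in 20 groups, and KD replicate 10 was that library for 16 of them, each time as the highest of the 5. These were Aldh1b1 (35.7 CPM), Snx10 (62.3), Il13ra1 (82.9), Tnfrsf21 (35.5), Mt1 (21.7), Etv6 (54.6), Ctsc (250), Vsig4 (104), Fcgr1 (8.73), Cd14 (15.7), Cdh5 (81.0), Sox9 (52.8), Col1a1 (188), Krt19 (9.88), Gm22009 (92.9) and Muc16 (55.5 CPM). KD replicate 16 was apart in Gm23935 (738 CPM), Mir6236 (147 CPM) and, as the lowest, Glp2r (2.99 CPM), and KD replicate 11 was the lowest in Snora23 (40.5 CPM).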

How the results depend on the processing

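No paired analysis was possible because the livers with and without signal share no replicate number. The counts of calls moved with the settings. Genes higher over all tested genes (4085) numbered 18154 with no filter, 9473 with all 16 livers in one fit, 15567 with DESeq2, 7 with at least 10 counts in every library, 215 with the silent-gene rate taken off, and 2328 to 5812 with one liver left out. Genes lower (473) numbered 124 with total counts alone, 277 with TMM from expressed genes, 1697 with no filter, 0 with at least 10 counts (1102 at an unadjusted p under 0.05), 72 with all 16 livers, 1601 with DESeq2, 860 with limma, 10 with the rate taken off, and 75 to 1026 with one liver left out. Among expressed genes, those higher (446) numbered 6 with at least 10 counts, 284 with all 16 livers, 19 with the rate taken off, 50 with expressed genes alone, and 237 (without replicate 11) to 681 (without replicate 10). Those lower (472) numbered 124 with total counts alone, 277 with TMM from expressed genes, 1686 with no filter, 0 with at least 10 counts, 67 with all 16 livers, 1597 with DESeq2, 860 with limma, 10 with the rate taken off, 0 with expressed genes alone, 75 without replicate 11, 92 without 14, 150 without 16, 181 without 15, 256 without 12, 981 without 10 and 1024 without 13. Of the 10 expressed genes lower with the rate taken off, 4 were among the 472. Leaving out a library changes the number of libraries and the filter, and the cause of each shift was not tested. The difference in short RNAs turned to -0.008168, -0.01125 and -0.0001773 percentage points without replicates 9, 12 and 16, and reached 0.0557 without 13. In brains r for short RNAs was 0.518 on the log2 scale (permutation adjusted p = 0.069). Snhg14 turned to -0.19 with the rate taken off. The other class differences, the X ratio and the counts in CD replicate 1 kept their direction and their side of the threshold. Of 2204 values for 129 named genes, 1889 kept their side, 240 lost and 74 gained a call. The simulation held changes of 1 (99 genes) and 2 (95 genes) on the log2 scale only, so recovery of smaller changes was not tested. Far fewer genes were changed in it than were called in the data, where expressed genes called lower had a median log2 fold change of -0.71.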
